A study of Homo sapiens with 6 samples.

Results

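The genes described here are 44 components of the transport machinery between the endoplasmic reticulum (ER) and the Golgi apparatus, taken by gene symbol from a table of 23754 features. They comprise 15 genes of the COPII coat and ER exit sites, 2 adaptors for large cargo, 10 cargo receptors, 3 retrieval receptors, 7 genes of the COPI coat and its GTPases, and 7 tethers and SNAREs. All 44 symbols were found, and all 44 passed the filter on low counts, which kept 13991 features. RNA came from IMR-90, a line of human fetal lung fibroblasts transduced with the Tet-pLKO-puro lentiviral vector that carries the sh-2 hairpin against ZNF469, a zinc finger gene, and kept under puromycin selection. In DOX+ cells (Sh-ZNF469, 3 libraries) the hairpin was induced with 2 µg/mL doxycycline for 4 days, and DOX– cells (Control, 3 libraries) received no doxycycline. Both groups therefore hold the integrated vector and the selection agent, although the submitted genotype label of the control is wild-type. Every DOX+ library received doxycycline and the hairpin together, so their effects cannot be told apart. A single transduced line and a single hairpin were sequenced, and the submitters describe the libraries as technical replicates, so the p-values measure only the spread between these libraries, which may be technical.

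Secretory proteins leave the ER in vesicles shaped by the COPII coat, in which a GTPase of the SAR1 family recruits the inner coat of SEC23 and SEC24 and then the outer cage of SEC13 and SEC31. SEC24 and membrane-spanning receptors select the cargo, and procollagen, which is longer than an ordinary vesicle, needs adaptors such as MIA3 to leave the ER. The COPI coat returns receptors and escaped ER residents, whereas tethers and SNAREs capture and fuse the arriving carriers. Fibroblasts are professional secretors of collagen and depend on this route for matrix deposition.

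The libraries held 34057675 to 36120260 counts each. ZNF469 itself stood at 118, 112 and 126 CPM (read counts scaled to a common library size with the TMM factors of edgeR) in DOX– replicates 1 to 3 and at 80.4, 80.4 and 79.6 CPM in the DOX+ replicates. It fell in DOX+ cells by edgeR's quasi-likelihood test (log2 fold change -0.57, SE 0.0477, adjusted p = 3.31e-05). Fibroblast markers were detected for 10 of 10 genes, whereas the 6 epithelial and 4 endothelial markers averaged under 1 FPKM (read fragments scaled to transcript length and library size), with 3 and 2 of them at 0 counts in every library. Of the immune markers, PTPRC and CD3E averaged under 1 FPKM, and CD68, a lysosomal protein, averaged 30.7 FPKM. The summed fibroblast markers, which are led by VIM and the collagen I chains, gave 8499 to 8562 FPKM in DOX– and 7284 to 7370 FPKM in DOX+ libraries. Over the 6 libraries COL1A1 ranged from 1289 to 2107 FPKM and COL1A2 from 1217 to 1693 FPKM, whereas VIM ranged from 3776 to 3908 FPKM. The part of these markers in the results below was not tested. DOX+ replicate 2 stood apart from the other libraries on the leading principal component, which held 23.9% of the variance. Its score was 32.8 against a range of -12.6 to 0.524. On the second component DOX+ replicate 3 stood apart at -29.0, and DOX– replicate 1 stood apart on the other side at 20.3. The remaining libraries ranged from 0.721 to 4.51.

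All 44 genes were expressed in every library, and none differed between DOX+ and DOX– cells at an adjusted p under 0.05. The mean level per gene ran from 3.69 FPKM for MIA2 to 315 FPKM for ARF4, a GTPase of the COPI route. The log2 fold changes of DOX+ over DOX– libraries ran from -0.14 for the SNARE STX5 to 0.18 for the cargo receptor TMED5, and their median was 0.05 against -0.0019 over all features tested. A positive log2 fold change was found for 37 of the 44 genes (84.1%), compared with 49.3% of all features. Summed over the 44 genes, the level was 8325 ± 70.3 CPM in DOX– and 8634 ± 62.9 CPM in DOX+ libraries (mean ± SD, n = 3 each). In such bulk RNA, a different number of cells expressing a gene and a different amount of RNA per cell cannot be told apart.

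In the edgeR quasi-likelihood test, with p-values adjusted after Benjamini and Hochberg over 13991 features, 0 of 44 genes were called higher and 0 lower at an adjusted p under 0.05, where 0.4% of all features were called higher and 0.715% lower. With library size scaling in place of TMM these shares of all features became 0.629% and 0.55%, which turns the balance between them. When p was not adjusted, 10 genes were higher at a p under 0.05 and STX5 was lower, beside 7.31% and 7.69% of all features. The DOX+ libraries lay wholly above the DOX– libraries for 13 genes and wholly below them for STX5, compared with 9.73% and 10.6% of all features. The limma-voom test called 0 genes, and DESeq2, which tests the same counts with another model of their spread, called 6 higher and 0 lower (3.32% and 3.3% of the 8023 features to which it gave an adjusted p). The genes called by DESeq2 were LMAN1, TMED2, TMED5 and TMED7 among the cargo receptors, the retrieval receptor KDELR3 and the SNARE SEC22B. LMAN1 and TMED7 were also called without the filter on low counts (0.68% of all features called higher) and without DOX+ replicate 3 (0.485%), and LMAN1 with library size scaling. For 39 of the 44 genes, and for 7000 of the 13991 features tested, the 95% interval lay within a factor of 1.2 in both directions. The exceptions were MIA2, BET1, TMED5, LMAN1 and TMED7, whose upper bounds were higher. The width of an interval depends on the level of a gene, and the 44 genes were not matched for level with all features. The genes had a median GC content of 44.5% against 48.3% for all features tested. Once the trend of each library's counts on GC content was removed, the median log2 fold change was 0.04, and 34 of the 44 genes had a positive value.

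**Figure D1:**
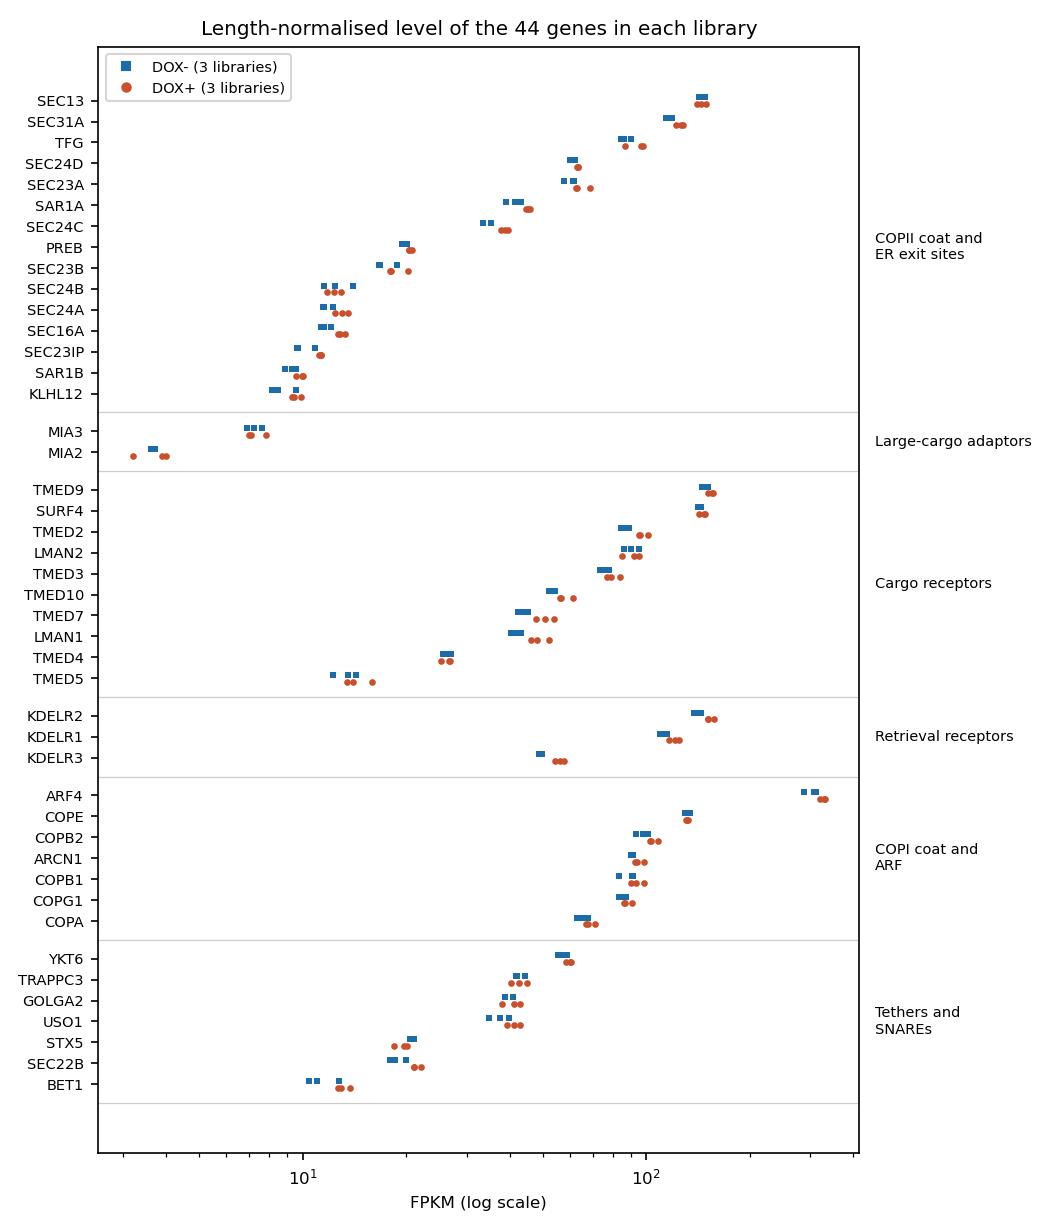
Each point is the FPKM of 1 gene in 1 library on a log axis, with DOX– libraries as squares and DOX+ libraries as circles, and genes ordered by mean level within each role. The 6 libraries lie close together for each gene, while the genes range from 3.69 FPKM for MIA2 to 315 FPKM for ARF4.

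**Figure D2:**
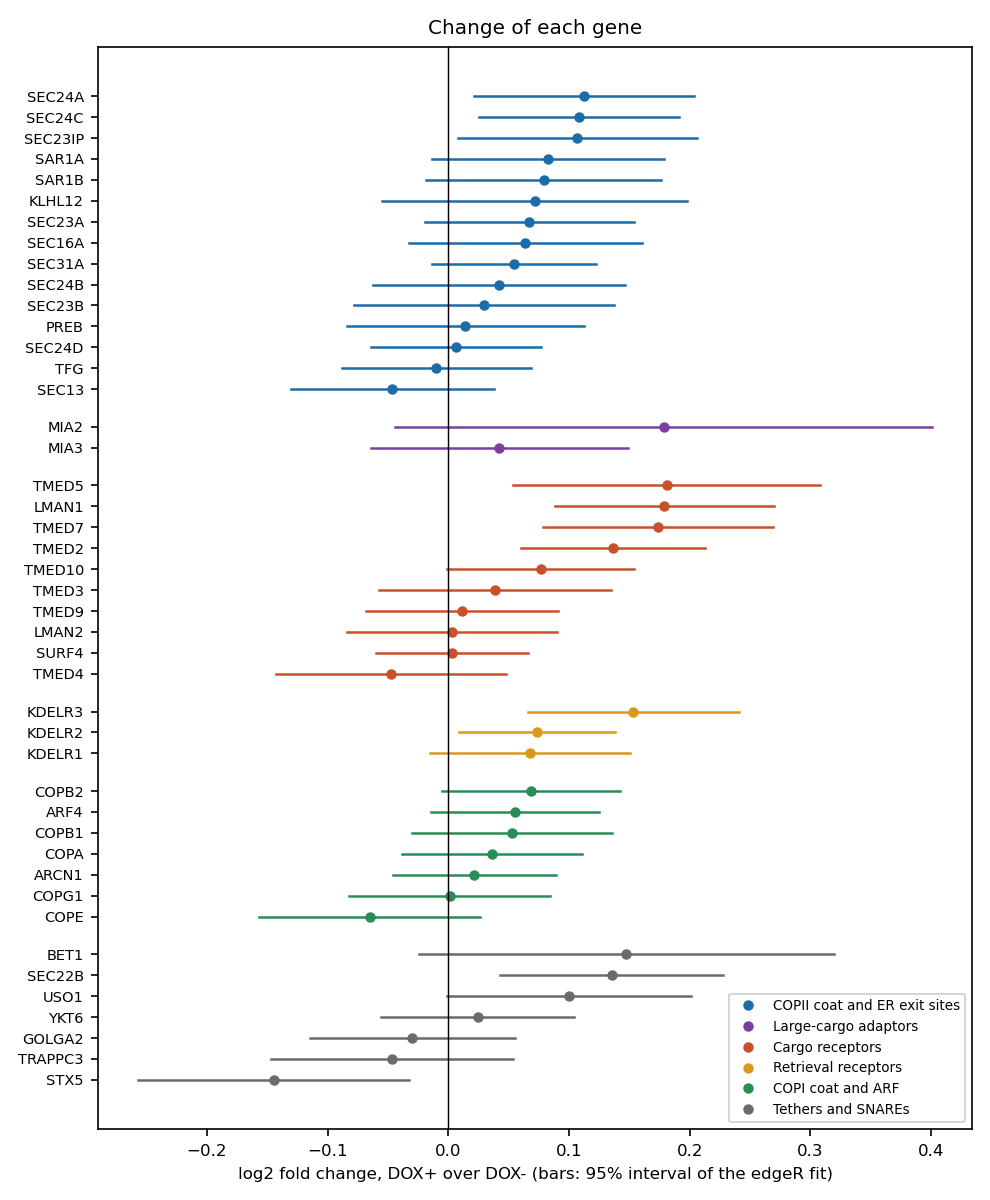
Points are log2 fold changes of DOX+ over DOX– libraries (3 against 3) from edgeR, and bars are their 95% intervals, coloured by role. Most points lie right of 0, between -0.14 for STX5 and 0.18 for TMED5, and no gene passed an adjusted p of 0.05.

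The promoters were searched because genes of the secretory route are known targets of bZIP factors of the unfolded protein response, which bind short elements with the core TGACGTGG, called the UPRE core here. A RefSeq promoter of GRCh38.p14, from 250 bases before to 50 after the start site, was matched for 37 of the 44 genes. The UPRE core, on either strand, was found in 8 of the 37 (21.6%). It was found for 1.24% of the 10099 features tested that had a promoter and for 0.927% of all 27305 genes with one. A gene was counted when any of its promoters held the element. The 8 genes were COPA, COPB1, COPB2, KDELR3, SEC16A, SEC23A, SEC24A and STX5, and COPB2 held it at 2 positions. The shorter core CCACG is also contained in the reverse complement of the UPRE core. It was found for 32 of the 37 genes (86.5%), compared with 57.3% of features tested. The cyclic AMP response element TGACGTCA was found for 0 of the 37 genes (3.84% of features tested). The ER stress element, CCAAT then 9 bases of any kind and CCACG, and its variant ERSE-II, ATTGG then 1 base and CCACG, were likewise found in 0 of 37 (0.158% and 0.139% of features tested). The median log2 fold change was 0.07 for the 8 genes with the UPRE core and 0.04 for the 29 genes without it, and the ranges overlapped, from -0.14 to 0.15 and from -0.07 to 0.18.

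The stretches around the UPRE core are shown for 6 of these genes, which include the 3 of the 8 with the smallest p-values in the comparison (KDELR3, STX5 and SEC24A), an inner-coat subunit and the COPI subunits COPA and COPB2. Each is written 5′ to 3′ on the strand of its gene, and the capitals mark the UPRE core or its reverse complement.
KDELR3: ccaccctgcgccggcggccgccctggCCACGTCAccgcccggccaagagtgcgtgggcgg
SEC24A: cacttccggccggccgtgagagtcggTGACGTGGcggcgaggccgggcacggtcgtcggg
STX5: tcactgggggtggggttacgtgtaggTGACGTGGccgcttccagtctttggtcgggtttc
SEC23A: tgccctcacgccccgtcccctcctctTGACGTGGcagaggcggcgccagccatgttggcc
COPA: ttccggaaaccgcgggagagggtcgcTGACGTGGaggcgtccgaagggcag
COPB2, proximal: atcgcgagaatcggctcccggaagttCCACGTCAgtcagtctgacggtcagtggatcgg
COPB2, distal: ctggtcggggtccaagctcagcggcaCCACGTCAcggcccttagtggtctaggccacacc
In GRCh38.p14 these stretches lie at chr22:38468024-38468083, plus strand (KDELR3), chr5:134648580-134648639, plus strand (SEC24A) and chr11:62832034-62832093, minus strand (STX5). Those of the coat genes lie at chr14:39103206-39103265, minus strand (SEC23A), chr1:160343221-160343271, minus strand (COPA), and chr3:139389618-139389676, minus strand, and chr3:139389810-139389869, minus strand (COPB2). The core begins 46 bases before the RefSeq start in KDELR3, 179 before it in SEC24A, 16 before it in STX5 and 4 before it in SEC23A. It begins at base 6 of the transcribed region in COPA, and 3 and 163 bases before the start in COPB2. The RefSeq start need not be the one used in these cells, and a match of letters is not a bound site.

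In the COPII coat and ER exit sites, 13 of 15 genes had a positive log2 fold change, with a median of 0.06, and 0 passed the test. Levels ran from 9.13 FPKM for KLHL12 to 145 FPKM for SEC13. KLHL12, the substrate adaptor of the ubiquitin ligase that modifies SEC31 and is linked to coats large enough for procollagen, had 34.2, 30.2 and 31.9 CPM in DOX– and 33.9, 34.2 and 33.1 CPM in DOX+ libraries. These overlapped (log2 fold change 0.07, SE 0.0585, adjusted p = 0.606). SEC13, a subunit of the outer cage that also serves the nuclear pore, had 230.1, 229 and 242 CPM in DOX– and 227, 218 and 233 CPM in DOX+ libraries. It had the lowest log2 fold change of this class (log2 fold change -0.05, SE 0.0389, adjusted p = 0.618), and the groups overlapped. Its partner in the cage, SEC31A, gave 116 ± 2.44 FPKM in DOX– and 125 ± 3.36 FPKM in DOX+ libraries (mean ± SD, n = 3 each), with overlapping CPM values. For the class as a whole the relative rise was larger in FPKM than in CPM. The class sum was 647 ± 9.45 FPKM in DOX– and 683 ± 3.10 FPKM in DOX+ libraries, against 2268 ± 17.9 and 2340 ± 11.4 CPM. These measures are scaled differently, since only CPM carries the TMM factors, and the reason for the gap was not tested.

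SEC24 subunits bind the sorting signals of cargo, and SEC24C and SEC24A were those with the smallest p-values. SEC24C had 179, 179.8 and 173 CPM in DOX– and 190.3, 185 and 197 CPM in DOX+ libraries, with all DOX+ values above the DOX– values. Its log2 fold change was 0.11 (SE 0.0384, edgeR adjusted p = 0.208), and it was the only one of the 44 genes to pass once the GC trend was removed (adjusted p = 0.0413, beside 0.908% of all features called higher). SEC24A, whose promoter holds the UPRE core shown above, had 83.1, 79.4 and 79.6 CPM in DOX– and 85.02, 89.7 and 87.1 CPM in DOX+ libraries. The groups were separate (log2 fold change 0.11, SE 0.0422, adjusted p = 0.228), and the log2 fold change was 0.05 without the GC trend. SEC24A and the SAR1 GTPase gene SAR1B lie on opposite strands with overlapping exons, and since the strand used in counting is not stated, their reads cannot be fully told apart. The same limit applies to the opposite-strand overlaps of TMED5, KDELR3, COPA, COPB2, USO1 and TRAPPC3 given below.

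SEC24D and SEC23A are the inner-coat genes whose inherited defects affect the skeleton. SEC24D had 275, 277 and 272 CPM in DOX– and 279, 272 and 277 CPM in DOX+ libraries. Its log2 fold change was 0.01, with a 95% interval of -0.06 to 0.08 (edgeR adjusted p = 0.949). SEC23A had 279.6, 281 and 267 CPM in DOX– and 281, 304 and 281 CPM in DOX+ libraries. Its groups touched without overlapping, since the lowest DOX+ and the highest DOX– library agreed to 3 digits, and the edgeR estimate was 0.07 (95% interval -0.02 to 0.15, adjusted p = 0.463).

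SEC23IP, which binds SEC23 at ER exit sites, had 74.5, 80.7 and 74.6 CPM in DOX– and 82.9, 84.4 and 80.2 CPM in DOX+ libraries. DOX– replicate 2 reached into the DOX+ range (log2 fold change 0.11, SE 0.0458, adjusted p = 0.294). The other genes of this class had log2 fold changes between -0.01 for TFG, which organises exit sites, and 0.08 for SAR1A, the more abundant SAR1 GTPase. Their adjusted p-values ran from 0.408 to 0.93 in the edgeR fit. Among them were the exit-site scaffold SEC16A (0.06) and PREB, the exchange factor that loads SAR1 with GTP (0.01).

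By FPKM, the adaptors for large cargo were the least abundant of the 44 genes. MIA3, known as TANGO1, spans the ER membrane and links procollagen in the lumen to the COPII coat. Its level was 7.24 ± 0.345 FPKM in DOX– and 7.28 ± 0.462 FPKM in DOX+ libraries (mean ± SD, n = 3 each), and it had 49.3, 52.5 and 51.3 CPM in DOX– and 53.5, 54.2 and 49.98 CPM in DOX+ libraries. These overlapped (log2 fold change 0.04, SE 0.0493, adjusted p = 0.739, 95% interval -0.06 to 0.15), and the estimate was -0.0049 once the GC trend was removed. MIA2, which forms a complex with MIA3 at exit sites, had 13.4, 11.5 and 11.9 CPM in DOX– and 13.9, 15.5 and 12.4 CPM in DOX+ libraries. It gave the widest interval of the 44 genes, -0.04 to 0.40 around a log2 fold change of 0.18 (edgeR adjusted p = 0.446), and DESeq2 gave it no adjusted p. The estimate was 0.10 without DOX+ replicate 2 and 0.25 without DOX+ replicate 3. Per length it was 3.68 ± 0.0573 FPKM in DOX– and 3.70 ± 0.429 FPKM in DOX+ libraries (mean ± SD, n = 3 each), so the FPKM values do not repeat the higher counts.

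Among the cargo receptors, 9 of 10 had a positive log2 fold change, with a median of 0.06, and the 3 smallest adjusted p-values of the 44 genes were found in this class. LMAN1, a mannose-binding lectin that carries glycoproteins out of the ER (GRCh38 chr18:59327823-59359265, minus strand), had 257, 264 and 252 CPM in DOX– and 289.6, 308 and 276 CPM in DOX+ libraries. All DOX+ libraries were above all DOX– libraries, at 291 ± 16.04 against 257 ± 5.90 CPM (mean ± SD, n = 3). The log2 fold change was 0.18 (SE 0.0421, 95% interval 0.09 to 0.27), and the edgeR adjusted p of 0.0668 missed the threshold. LMAN1 passed it in 5 of 17 alternative fits, with adjusted p-values over the 17 from 0.000752 to 0.232. The estimate was 0.10 once the GC trend was removed. DOX+ replicate 3 had the lowest LMAN1 level of its group and stood apart on the second component. Without it LMAN1 passed, with an edgeR adjusted p of 0.0304. DOX+ replicate 2 had the highest LMAN1 level of its group and stood apart on the leading component. Without that library the log2 fold change was 0.14 (edgeR adjusted p = 0.16).

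The proteins of the p24 family, encoded by the TMED genes, form heteromeric complexes that sort lipid-anchored and other luminal cargo and cycle between COPII and COPI vesicles. TMED7 had 183, 188 and 179 CPM in DOX– and 208, 217 and 195 CPM in DOX+ libraries, and the groups were separate. Its log2 fold change was 0.17 (SE 0.0439, edgeR adjusted p = 0.0826), and it passed in 4 of 17 alternative fits, among them that without DOX+ replicate 3 (adjusted p = 0.033). Without DOX+ replicate 2, its highest library, the log2 fold change was 0.14 (edgeR adjusted p = 0.228). A readthrough transcript, TMED7-TICAM2, shares its exons and had 370 to 638 counts a library, so some reads could belong to either. TMED2 had 242, 252 and 243 CPM in DOX– and 268, 277 and 266 CPM in DOX+ libraries, again without overlap (log2 fold change 0.14, SE 0.0353, adjusted p = 0.0876). TMED5 had 77.03, 77.1 and 69.6 CPM in DOX– and 80.7, 91.99 and 80.9 CPM in DOX+ libraries. DOX+ replicate 2 was its highest library, and the groups did not overlap (log2 fold change 0.18, SE 0.0589, adjusted p = 0.171). Without that library the log2 fold change was 0.12 (edgeR adjusted p = 0.439). Its exons overlap CCDC18 on the opposite strand, which had 17.5% of its counts. With the GC trend removed, the log2 fold changes were 0.09 for TMED7, 0.08 for TMED2 and 0.10 for TMED5.

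TMED10, the partner of TMED2 in these complexes, had 242, 248 and 243 CPM in DOX– and 253, 267 and 253 CPM in DOX+ libraries, with separate groups and a smaller difference (log2 fold change 0.08, SE 0.0358, adjusted p = 0.34). TMED9 was the most abundant cargo receptor at 151 FPKM. It had 246, 237 and 249 CPM in DOX– and 249.5, 238 and 249.9 CPM in DOX+ libraries, which overlapped (log2 fold change 0.01, SE 0.0368, adjusted p = 0.921). TMED4 was the exception in sign, with 64.2, 61.2 and 64.7 CPM in DOX– and 60.02, 61.1 and 62.8 CPM in DOX+ libraries (log2 fold change -0.05, SE 0.0440, adjusted p = 0.66). TMED3 had a log2 fold change of 0.04.

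SURF4, a membrane-spanning receptor for soluble cargo, and the lectin LMAN2 had log2 fold changes close to 0. SURF4 had 479, 468 and 479 CPM in DOX– and 474, 478 and 477 CPM in DOX+ libraries, and the groups overlapped. Its log2 fold change was 0.0031 with a 95% interval of -0.06 to 0.07 (edgeR adjusted p = 0.974). LMAN2 gave 90.6 ± 4.37 FPKM in DOX– and 90.9 ± 5.43 FPKM in DOX+ libraries (mean ± SD, n = 3 each), and the edgeR interval of its log2 fold change was -0.08 to 0.09.

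**Figure D3:**
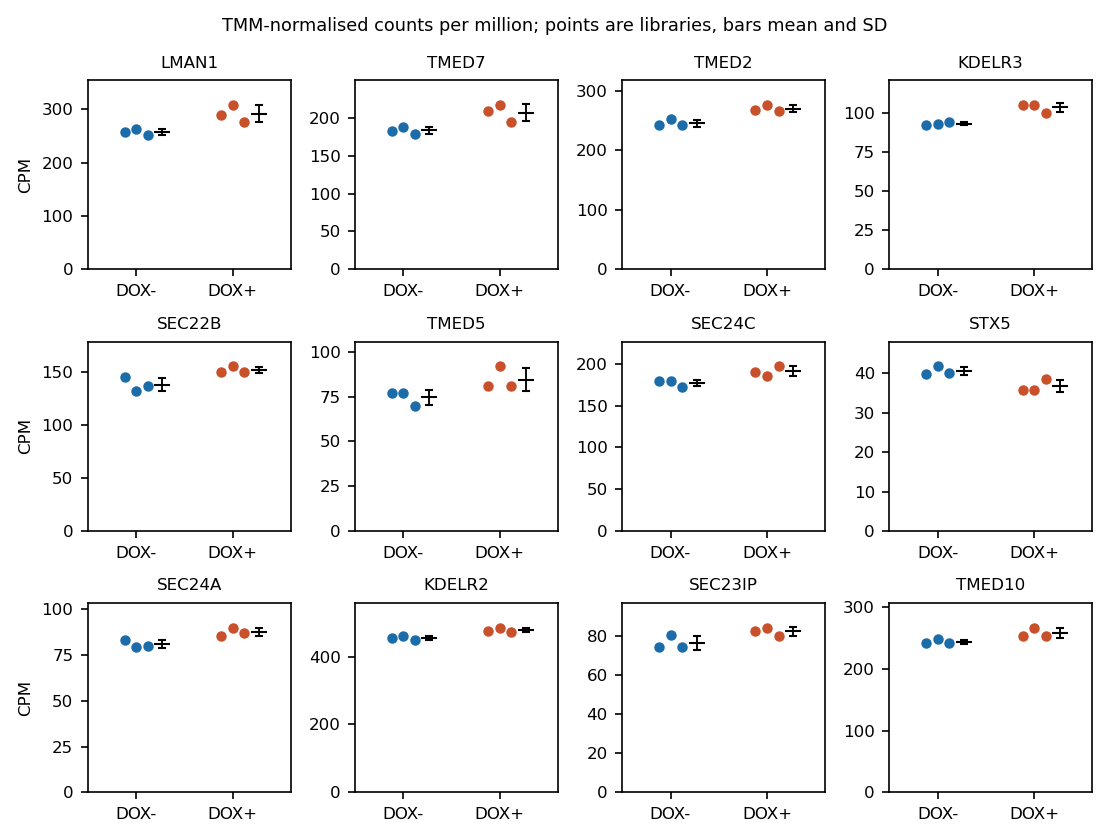
Points are CPM scaled by TMM in each of the 3 DOX– and 3 DOX+ libraries for the 12 genes with the smallest unadjusted p-values, and bars are the mean and SD. The DOX+ libraries lie above the DOX– libraries for 10 of them, overlap for SEC23IP and lie below for STX5.

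KDEL receptors bind the carboxyl-terminal signal of escaped ER residents in the Golgi and return them with COPI vesicles, and the log2 fold changes of all 3 genes were positive in this fit. KDELR3 (GRCh38 chr22:38468078-38483447, plus strand), the least abundant of the 3 at 52.5 FPKM, had 91.98, 93.1 and 93.9 CPM in DOX– and 105, 105 and 100.1 CPM in DOX+ libraries. The groups were separate, and the DOX– libraries differed among themselves by an SD of 0.979 CPM (log2 fold change 0.15, SE 0.0404, adjusted p = 0.0962). KDELR3 passed with DESeq2 (adjusted p = 0.0131) and with the trend on transcript length removed, where it was the only one of the 44 genes to pass (adjusted p = 0.0483, beside 0.336% of all features). It overlaps exons of DDX17 on the opposite strand, which had 9256 to 10594 counts a library, 288% of those of KDELR3. KDELR2, at 147 FPKM the most abundant, had 454, 460.2 and 448 CPM in DOX– and 475, 485 and 474 CPM in DOX+ libraries. These did not overlap (log2 fold change 0.07, SE 0.0298, adjusted p = 0.267), and the same-strand neighbour DAGLB, with which it shares exonic bases, had 8.86% of its counts. KDELR1 had 189, 193 and 201 CPM in DOX– and 199, 208 and 205 CPM in DOX+ libraries, and DOX– replicate 3 lay inside the DOX+ range (log2 fold change 0.07, SE 0.0383, adjusted p = 0.437).

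Of the COPI coat and its GTPases, 6 of 7 genes had a positive log2 fold change, with a median of 0.04, and every 95% interval lay within a factor of 1.2. ARF4, a GTPase of the early Golgi and the most abundant of the 44 genes, had 563, 572 and 536 CPM in DOX– and 568, 585 and 583 CPM in DOX+ libraries. DOX– replicate 2 exceeded DOX+ replicate 1 (log2 fold change 0.06, SE 0.0323, adjusted p = 0.453). COPB2, a coat subunit that recognises the retrieval signals of cargo and whose promoter holds the UPRE core at both positions shown above, had 363, 352 and 341 CPM in DOX– and 369, 376 and 364 CPM in DOX+ libraries. Its groups were separate by a small margin (log2 fold change 0.07, SE 0.0341, adjusted p = 0.37). COPA, its partner subunit, had 352, 330.1 and 334 CPM in DOX– and 351, 345 and 347 CPM in DOX+ libraries (log2 fold change 0.04, SE 0.0345, adjusted p = 0.667), and the highest library of all was DOX– replicate 1. COPE was the coat subunit with a negative sign, at 161, 158 and 171 CPM in DOX– and 159, 151 and 158 CPM in DOX+ libraries (log2 fold change -0.07, SE 0.0423, adjusted p = 0.501). For ARF4 and COPE the sign turned once the GC trend was removed, to -0.0027 and 0.0088. COPB1, COPG1 and ARCN1 had log2 fold changes of 0.05, 0.0012 and 0.02. Exons of COPA and COPB2 overlap the opposite-strand genes NCSTN and MRPS22, whose counts were 52.6% and 9.44% of theirs.

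The tethers and SNAREs went in both directions, with 4 of 7 positive and a median of 0.02. SNAREs on the vesicle and the target membrane zip into a bundle that fuses them, and STX5 enters such bundles with SEC22B and BET1, and with YKT6, beside other partners. STX5 (GRCh38 chr11:62806860-62832051, minus strand) had 39.9, 41.8 and 40.2 CPM in DOX– and 35.9, 35.9 and 38.5 CPM in DOX+ libraries, and was the only one of the 44 genes with all DOX+ libraries below all DOX– libraries. Its log2 fold change was -0.14 (SE 0.0520, 95% interval -0.26 to -0.03, edgeR adjusted p = 0.213), and it passed in 0 of 17 alternative fits (adjusted p from 0.154 to 0.441). SEC22B had 145, 133 and 138 CPM in DOX– and 151, 156 and 150.0 CPM in DOX+ libraries, in the opposite order and without overlap (log2 fold change 0.14, SE 0.0427, adjusted p = 0.161). DESeq2 called it (adjusted p = 0.0298), and the log2 fold change was 0.06 once the GC trend was removed. The submitters also assigned the SEC22B symbol to 2 unannotated loci with 422 to 519 and 2 to 48 counts a library, which were counted apart.

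BET1, the least abundant of this class at 12.3 FPKM, had 18.5, 21.5 and 17.9 CPM in DOX– and 21.1, 22.3 and 20.7 CPM in DOX+ libraries. DOX– replicate 2 lay inside the DOX+ range (log2 fold change 0.15, SE 0.0795, adjusted p = 0.413). YKT6, a SNARE held to membranes by lipid anchors and the most abundant of the class at 58.4 FPKM, had 168, 167 and 164 CPM in DOX– and 172, 165 and 171 CPM in DOX+ libraries (log2 fold change 0.02, SE 0.0370, adjusted p = 0.805). The tethers, which catch vesicles before fusion, were USO1 (0.10), the Golgi matrix protein GOLGA2 (-0.03) and the TRAPP subunit TRAPPC3 (-0.05), each with overlapping groups. Exons of USO1 and TRAPPC3 overlap genes on the opposite strand, G3BP2 and MAP7D1, whose counts were 115% and 437% of theirs.

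Several of these proteins belong to families of paralogues, so the share of each paralogue in the summed FPKM of its family was compared. SAR1A made up 81.7% ± 0.220 in DOX– and 82.1% ± 0.220 in DOX+ libraries of the SAR1 message (mean ± SD, n = 3 each), and SEC23A made up 77.5% ± 1.06 in DOX– and 77.5% ± 0.297 in DOX+ of the SEC23 message. SEC24D was the main SEC24 message, with shares of 50.8, 50.5 and 51.5% in DOX– and 50.2, 49.6 and 49.4% in DOX+ libraries. SEC24C followed with 28.96, 28.7 and 28.7% in DOX– and 30.7, 29.6 and 30.8% in DOX+ libraries, whereas SEC24A (9.75% ± 0.361 in DOX– and 10.2% ± 0.422 in DOX+) and SEC24B (10.5% ± 0.792 in DOX– and 9.70% ± 0.446 in DOX+) were minor. The SEC24D and SEC24C shares did not overlap between groups, with DOX+ minus DOX– differences of -1.24 and 1.56 percentage points. KDELR3 held 16.2, 16.2 and 16.1% in DOX– and 17.4, 16.96 and 16.6% in DOX+ libraries of the KDEL receptor message, beside 46.8% ± 0.881 in DOX– and 46.4% ± 0.153 in DOX+ for KDELR2. LMAN1 held 31.7% ± 0.993 in DOX– and 34.9% ± 2.80 in DOX+ of the LMAN1 and LMAN2 message, and MIA3 held 66.2% ± 1.14 in DOX– and 66.3% ± 3.97 in DOX+ of that of MIA3 and MIA2. With 3 libraries against 3, a two-sided exact permutation test cannot give a p below 0.1. That value was reached for SAR1A, SEC24C, SEC24D, KDELR3, TMED2 and TMED4, and none of the 18 shares tested had an adjusted p under 0.3. As shares of counts in place of FPKM, the difference for SAR1A was 0.055 in place of 0.44 percentage points, with an exact permutation p of 0.9.

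**Figure D4:**
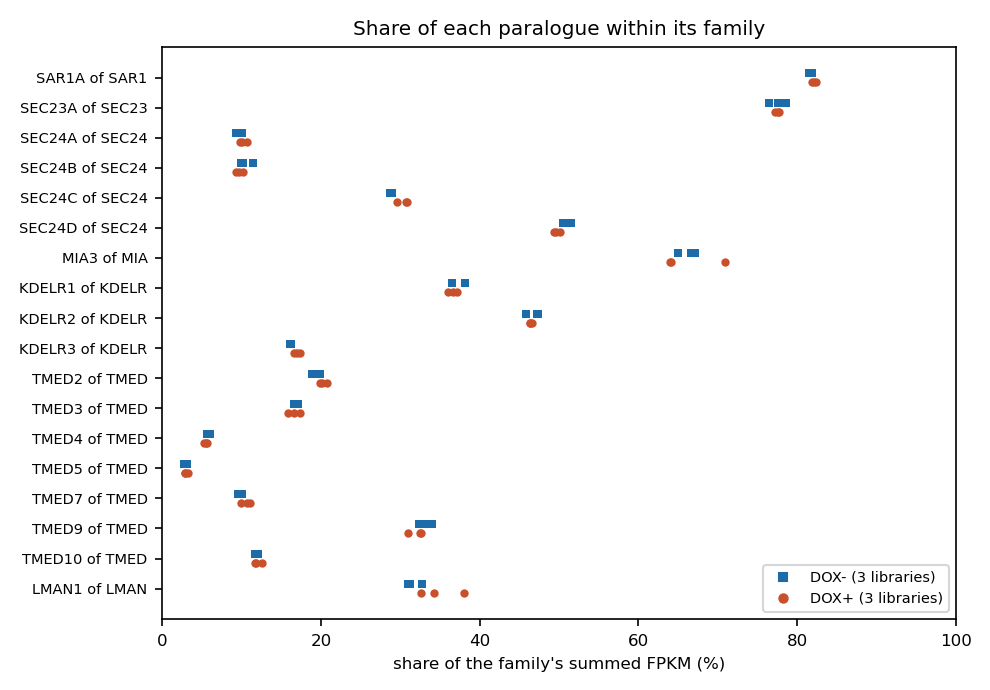
Each point is the percent of a family's summed FPKM held by 1 paralogue in 1 library, DOX– as squares and DOX+ as circles. Shares were close in the 6 libraries for most families, with SAR1A near 82% of SAR1 and SEC24D near 50% of SEC24. They ranged more widely for LMAN1, from 31.0 to 38.0% of its family, and for MIA3, from 63.9 to 70.9%.

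A further list of 78 genes of the same route, such as other COPI subunits, ARF and RAB GTPases, COG and TRAPP tethers, SNAREs and the CREB3 family of ER-membrane transcription factors, was tested in the same fit. Of the 76 that passed the filter on low counts, 34 had a positive and 42 a negative log2 fold change, with a median of -0.01. By edgeR's quasi-likelihood test, 0 were called higher and CREB3L1 alone was called lower (0.4% and 0.715% of all features). CREB3L1 is not part of the transport machinery but a transcription factor that is released from the membrane by cleavage in the Golgi. It had 298, 301 and 323 CPM in DOX– and 264, 248 and 281 CPM in DOX+ libraries, without overlap. It fell by 0.22 on the log2 scale (SE 0.0470, edgeR adjusted p = 0.0485). The call was lost in 8 of 17 alternative fits, where the adjusted p reached 0.205. Among these were the fits that left out any 1 library other than DOX+ replicate 3 (adjusted p from 0.104 to 0.205). The next smallest p-values belonged to COG6, a subunit of the COG tether (log2 fold change 0.17, SE 0.0536, adjusted p = 0.161), and BLZF1, a golgin (log2 fold change 0.21, SE 0.0717, adjusted p = 0.188). COG6 had 46.6, 45.9 and 42.00 CPM in DOX– and 48.7, 52.6 and 50.005 CPM in DOX+ libraries, and BLZF1 had 31.5, 31.7 and 28.6 and 33.2, 39.3 and 33.8 CPM, so both had separate groups with DOX+ higher. Without DOX+ replicate 2, its highest library, BLZF1 had a log2 fold change of 0.13 (edgeR adjusted p = 0.495). The UPRE core was found for 4 of the 66 genes of this list with a matched promoter (6.06%).

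**Figure D5:**
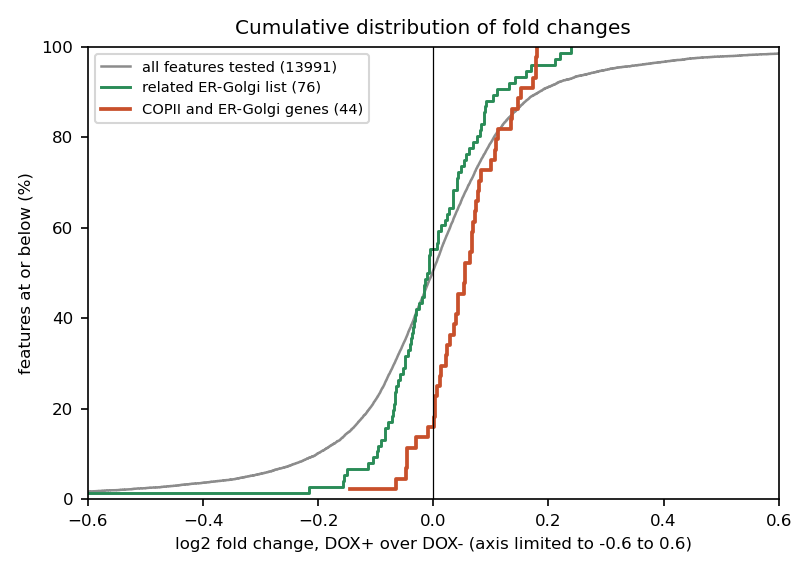
Lines give the percent of features at or below each log2 fold change (DOX+ over DOX–, edgeR, 3 libraries a group) for all 13991 features tested, the 76 related genes and the 44 genes described here. The line of the 44 genes crosses 50% at 0.05, right of the other lines, which cross it near 0, and it ends at 0.18.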

How the data were processed

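Poly(A)-selected RNA of 3 DOX– and 3 DOX+ libraries was sequenced in read pairs of 150 bp. Groups and replicate numbers were taken from the sample titles. The authors filtered reads on quality and aligned them to GRCh38 with HISAT2 and StringTie, whose versions, annotation release and strand setting are not given in the sources used here. For every gene in each library the authors deposited a whole, unnormalized read count and a value in FPKM. Of the table, 17 stray lines without a gene were dropped. Unannotated loci held 0.938% to 0.996% of the counts.

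Counts were tested with edgeR 4.0.16 in R 4.3.3 (filterByExpr with a minimum count of 10, TMM with factors from 0.988 to 1.01, quasi-likelihood test, no covariates, Benjamini-Hochberg adjustment over 13991 features). FPKM entered only levels and shares. Shares were compared by exact permutation tests in scipy 1.17.1. The 44 genes and all lists were chosen with earlier results of these data known. Genes given per library are the 12 with the smallest p, the extremes of level and log2 fold change in each role, and MIA3, MIA2, SEC23A, SEC24D and SURF4, and in the related list those past the threshold or with the 3 smallest p-values. SEC31A, LMAN2 and others are given as means or fold changes only. The result of 1 listed marker is not reported here. Alternatives were DESeq2 1.42.0, voom of limma 3.58.1, other filters, scalings and thresholds, leaving out each library, a replicate block, and lowess trends (span 0.3) on GC content or length, known for 91.3% of features tested from GENCODE 44. The scripts were tested on simulated counts with changes larger than those of the 44 genes. That test therefore does not show whether changes as small as these would be called. Counting error is small at this depth for abundant genes but weighs more in those with few counts, such as MIA2 and BET1. Intervals do not cover variation between cultures.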

Additional observations from a re-analysis of the deposited data

How the results depend on the processing

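The absence of calls among the 44 genes depended on the fit. The number called higher was 6 with DESeq2 (3.32% of the features with an adjusted p) and 2 without the filter on low counts (0.68% of all features). It was 1 each with library size scaling (LMAN1, 0.629%), the GC trend removed (SEC24C, 0.908%) and the length trend removed (KDELR3, 0.336%). It was 0 with limma-voom, upper-quartile scaling, DESeq2 size factors or the stricter filter, where 56, 60, 57 and 63 of all features were called higher. When 1 library was left out it ran from 0 to 2, the 2 being LMAN1 and TMED7 without DOX+ replicate 3 (0.485% of all features). At an unadjusted p under 0.05 it was 10, and 1 was lower (7.31% and 7.69% of all features). The cause of these differences was not tested. MIA2 had the fewest counts of the 44 genes and the widest interval. The median log2 fold change was 0.040 with the GC trend removed, with or without the block, and 0.076 with library size scaling. Single genes kept their direction and side of the threshold in 489 of the alternative values, and 16 newly passed, 8 no longer passed (all CREB3L1) and 14 turned in sign.

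The replicate number as a block called 3 of the 44 genes higher (LMAN1, TMED2 and TMED7), beside 0.965% of all features, and 0 together with the GC trend. Deviations of same-numbered libraries from their group means had correlations of -0.035 to 0.036, so the numbers were not taken to pair the libraries, and not every library correlated best with its own number. With the block and the GC trend, ARF4 was -0.0031, COPE 0.0087, MIA3 -0.0046 and SEC24D -0.0042 on the log2 scale. With the GC trend alone they were -0.0027, 0.0088, -0.0049 and -0.0040, and with the length trend removed SEC24D was -0.0068. Leaving out 1 library gave log2 fold changes of -0.00053 to 0.017 for SEC24D, -0.0066 to 0.0090 for SURF4 and -0.0089 to 0.034 for TMED9. Among other genes that it moved by over 1.5 times, the ranges were 0.10 to 0.25 for MIA2, 0.12 to 0.21 for TMED5, 0.13 to 0.26 for BLZF1, 0.10 to 0.23 for BET1, 0.029 to 0.087 for SEC23A, 0.030 to 0.12 for KLHL12, 0.028 to 0.076 for ARF4 and -0.089 to -0.030 for COPE, and none of them passed the threshold.

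For the shares within families, leaving out 1 library gave differences in percentage points of -0.73 to 0.088 for KDELR1, -2.22 to 1.26 for MIA3, -0.51 to 0.55 for SEC23A, -0.11 to 0.32 for TMED10, -0.68 to 0.13 for TMED3 and -0.11 to 0.11 for TMED5. As shares of counts, the differences were -1.46 points for MIA3, -0.16 for TMED10, 0.055 for SAR1A, -0.095 for SEC24B, 0.38 for SEC23A and 0.42 for TMED5.

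In the related list, 0 genes were called lower with the length trend removed, library size or upper-quartile scaling, an adjusted p under 0.01 or an added absolute log2 fold change over 1, and 0 to 1 when 1 library was left out. At an unadjusted p under 0.05, 6 were higher and 4 lower. Over all features, 56 higher and 100 lower became 266 and 265 with DESeq2, 127 and 163 with the GC trend removed, 127 and 163 without the filter, 135 and 157 with the block, 19 and 54 at an adjusted p under 0.01, 1023 and 1076 at an unadjusted p under 0.05, and 2 and 4 where the absolute log2 fold change also had to exceed 1. Library size scaling gave 88 higher, and leaving out 1 library gave 20 to 69 higher and 54 to 92 lower.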
